A study of Homo sapiens with 22 samples.

Results

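The 8 genes that encode the subunits of the cytosolic chaperonin CCT, also called TRiC, were examined for peaks of N-MYC and WDR5. The members were TCP1, CCT2, CCT3, CCT4, CCT5, CCT6A, CCT7 and CCT8, 8 of the 20136 protein-coding genes of the annotation. A gene was given a peak where a peak of a library's list lay within 1 kb of any transcription start site (TSS) of its basic transcripts, on genome build hg19. Each peak was described by its fold over background, by the percentile of that fold among all peaks of the same list, and by its summit, the base with the strongest signal.

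Chromatin immunoprecipitation with sequencing (ChIP-seq) was done in CHP-134 and IMR-32, established neuroblastoma lines with amplified MYCN, with a custom serum against N-MYC or an antibody against WDR5. CHP-134 cells received DMSO or a compound for 4 h, and each of these treatments gave 3 N-MYC and 3 WDR5 lists. The labels name the compound in more than 1 way and give the DMSO as 0.0005% in one field and 0.005% in another, and no dose of the compound was taken from them. IMR-32 cells were untreated and gave 2 N-MYC and 2 WDR5 lists, and 3 ChIPs of one sample were pooled for each library, so that 16 lists in 6 groups were used. The lines were sequenced on different instruments with single reads in one and paired reads in the other, so the line and the run cannot be told apart.

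CCT folds newly made proteins inside a cavity formed by stacked rings, and each ring holds one copy of each subunit. Actin and tubulin are its best known substrates, and the co-chaperone prefoldin hands them over. N-MYC binds DNA as a dimer with MAX, preferring E-boxes such as CACGTG, and WDR5 is a chromatin protein that binds MYC proteins and is best known as a subunit of MLL/SET methyltransferase complexes. CCT7 is one of the loci that the study followed by ChIP-QPCR as a conserved WDR5 site, so its high WDR5 values are a description here and not a test.

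The lists differed in length, which sets what a missing peak can mean. N-MYC lists held 9125 to 15286 peaks in DMSO, 2964 to 12313 with the compound and 5242 to 8286 in IMR-32. WDR5 lists held 1671 to 4891 peaks in DMSO, 1258 to 1693 in IMR-32 and, with the compound, 5973, 15 and 401 in replicates 1, 2 and 3. A gene without a peak was not called at the authors' threshold in that list, and no read coverage was used that could show a weaker signal. The WDR5 list of 15 peaks held none at a subunit gene and entered no fit.

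The stretches below carry the summits or motifs that the results turn on, and each is given on the strand of its gene, from hg19, with untranslated sequence left out. For CCT7 (chr2:73461513-73461647, plus strand, intron 1) and CCT4 (chr2:62115506-62115642, minus strand, coding part of exon 1 and the start of intron 1), capitals mark the span that holds the WDR5 summits of all 3 CHP-134 DMSO lists, 20 bp at CCT7 and 15 bp at CCT4. For TCP1 (chr6:160210058-160210208, minus strand, intron 1) capitals mark the CACGTG, and for CCT2 (chr12:69979316-69979445, plus strand, intron 1) the 46 bp that hold the N-MYC summits of the 3 DMSO lists.
CCT7: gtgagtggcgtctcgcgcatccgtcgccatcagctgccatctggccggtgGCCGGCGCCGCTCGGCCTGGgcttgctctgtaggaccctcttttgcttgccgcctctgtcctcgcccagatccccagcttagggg
CCT4: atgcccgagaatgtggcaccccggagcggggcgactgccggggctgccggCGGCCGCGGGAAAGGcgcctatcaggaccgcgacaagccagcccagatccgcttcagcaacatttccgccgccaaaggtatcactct
TCP1: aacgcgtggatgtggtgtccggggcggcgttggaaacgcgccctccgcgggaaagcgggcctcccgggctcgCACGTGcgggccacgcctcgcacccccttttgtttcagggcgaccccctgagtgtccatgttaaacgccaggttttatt
CCT2: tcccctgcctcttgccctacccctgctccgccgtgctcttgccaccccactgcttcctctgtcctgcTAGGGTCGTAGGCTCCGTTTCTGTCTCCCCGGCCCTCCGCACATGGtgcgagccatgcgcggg
The G and C content of the 4 stretches was 65.6% to 68.1%.

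In CHP-134 cells given DMSO, all 8 subunit genes had an N-MYC peak in at least 2 of the 3 lists, against 37.6% of all protein-coding genes. The 7 genes other than TCP1 had one in every list, as did 5348 of the 20136 protein-coding genes. CCT2, which encodes the beta subunit, had the highest N-MYC fold of the 8 genes in each DMSO list, with folds of 17.5, 11.1 and 11.3 in replicates 1, 2 and 3 and percentiles of 99.4, 95.9 and 94.9. CCT3, the gamma subunit gene, stood at percentiles of 81.1, 85.7 and 88.8. No other subunit gene kept so narrow a range.

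CCT7, the eta subunit gene, had N-MYC percentiles of 62.5, 72.2 and 46.8 in the 3 DMSO lists. CCT8, the theta subunit gene, stood at 87.5, 38.4 and 56.5. CCT6A, the zeta subunit gene, stood at 77.8, 51.1 and 87.4. The ranges of these 3 genes overlapped, so they could not be placed in order. CCT5, the epsilon subunit gene, ranged most widely with CCT4, the delta subunit gene: CCT5 stood at 96.7, 13.2 and 87.1, and CCT4 at 80.7, 86.5 and 4.57. TCP1, the alpha subunit gene, was at 67.4 and 56.4 in replicates 1 and 2 and had no peak in replicate 3. The mean difference of CCT7 from the median of its partner subunits was -14.4 percentile points with an SD of 28.3 (n = 3), so CCT7 did not stand apart from them in N-MYC.

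**Figure D1:**
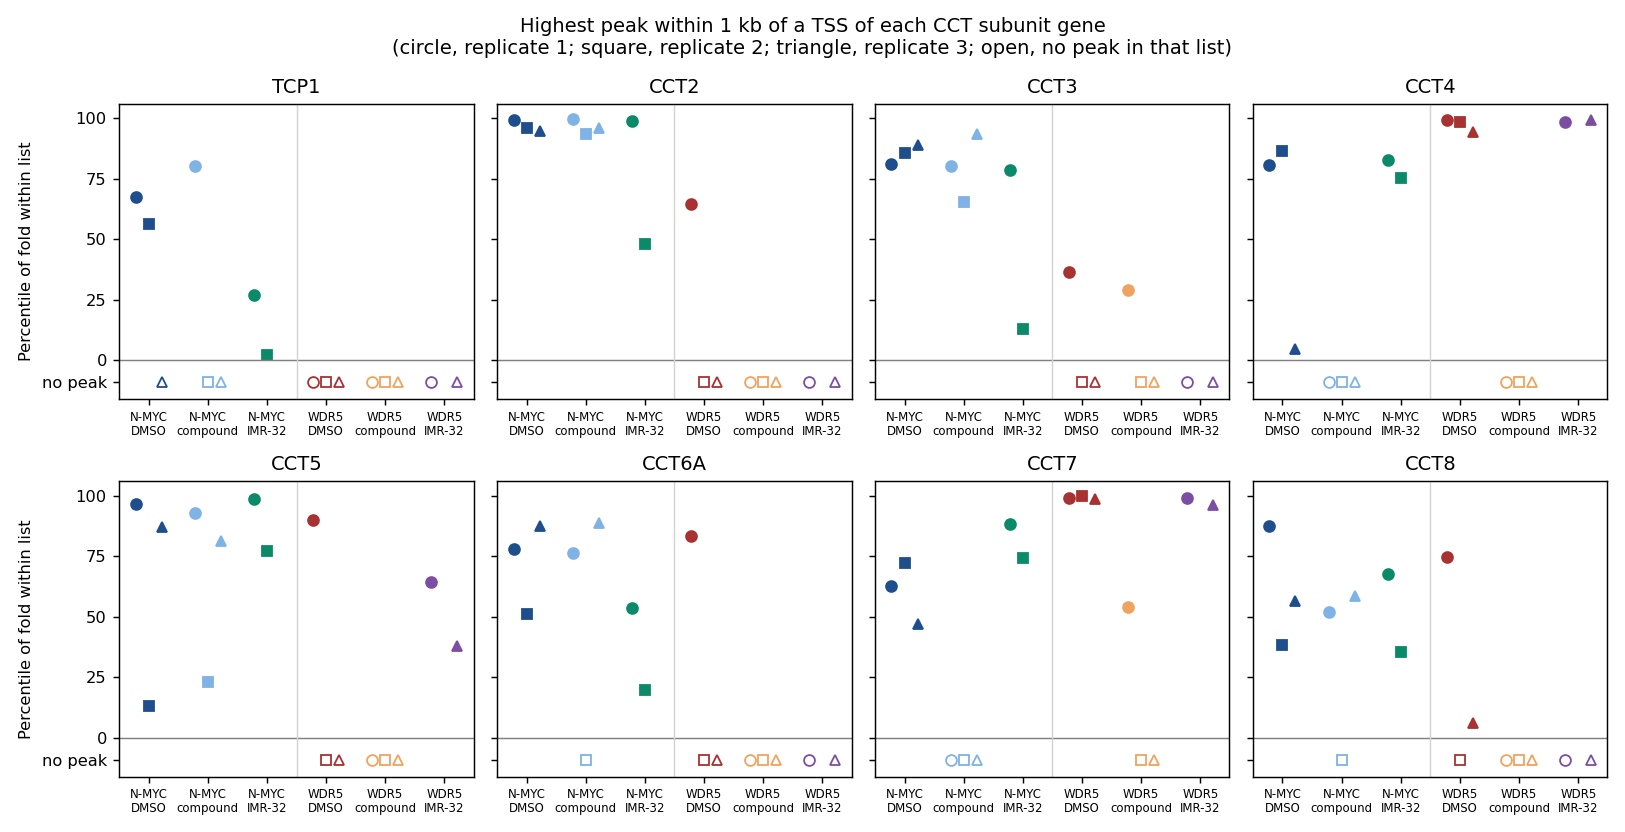
Percentile of the fold of the highest peak within 1 kb of a TSS (vertical axis, 0 to 100, open symbols at the foot where a list held no peak) for each of the 8 genes in 6 groups of lists (horizontal axis). WDR5 sat at 94.2 or above in DMSO and IMR-32 at CCT4 and CCT7, and N-MYC was missing at these 2 genes from all 3 compound lists.

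Some of these peaks lay at promoters shared with a neighbour, where the peak cannot be assigned to one gene. The TSS of ATPSCKMT lies 32 bp from the nearest TSS of CCT5, that of PSPH 81 bp from CCT6A and that of TSACC 211 bp from CCT3, and the highest peaks at these subunit genes also lay within 1 kb of the neighbour. MRPL18 starts 764 bp from TCP1 and PRADC1 997 bp from CCT7, and the highest CCT7 peak also lay within 1 kb of PRADC1 in every list with one except IMR-32 N-MYC replicate 2. A separate, weaker N-MYC peak with its summit at -947 bp from the CCT7 TSS was present in DMSO replicate 1, and one at -1160 bp in IMR-32 replicate 2. CCT2, CCT4 and CCT8 have no other protein-coding or lncRNA TSS within 1 kb.

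WDR5 divided the subunit genes. In DMSO, 3 of the 8 genes had a WDR5 peak in at least 2 of the 3 lists (CCT4, CCT7 and CCT8), against 8.24% of all genes. CCT7 had WDR5 folds of 48.6, 76.3 and 60.8 in replicates 1, 2 and 3, at percentiles of 99.2, 99.9 and 98.4. In replicate 2 it was the peak of rank 2 among 1758. CCT4 had folds of 49.9, 59.8 and 23.8, at percentiles of 99.3, 98.5 and 94.2. The ranges of CCT7 and CCT4 overlapped, and CCT4 was the higher of the pair in replicate 1.

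The other subunit genes were far below them. In DMSO replicate 1 the next gene was CCT5, with a fold 7.23 times lower than that of CCT7, and in replicate 3 it was CCT8, 7.23 times lower than CCT4. CCT2, CCT3, CCT5 and CCT6A had a WDR5 peak in the longest DMSO list, replicate 1, alone, at percentiles of 36.5 to 89.9. CCT8 stood at 74.5 in replicate 1 and 5.95 in replicate 3, and TCP1 had no WDR5 peak in any list. Within lists, CCT7 exceeded the median of the partners with a peak by 23.3 percentile points with an SD of 23.6 (n = 3). That mean rests on 6, 1 and 2 partners in the 3 lists, and it rose to 74.3 with an SD of 43.1 when partners without a peak were set at 0. Against CCT4, the highest partner in each list, the excess was nearly gone.

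The WDR5 peaks at CCT7 and CCT4 were also wide. They spanned 1427 to 1621 bp at CCT7 and 1241 to 1326 bp at CCT4 in DMSO, while the median width of the 3 lists was 430 to 449 bp. At CCT8 they spanned 452 and 467 bp. N-MYC peaks at CCT7 were 392 to 629 bp wide in the same cells, against list medians of 511 to 543 bp.

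**Figure D2:**
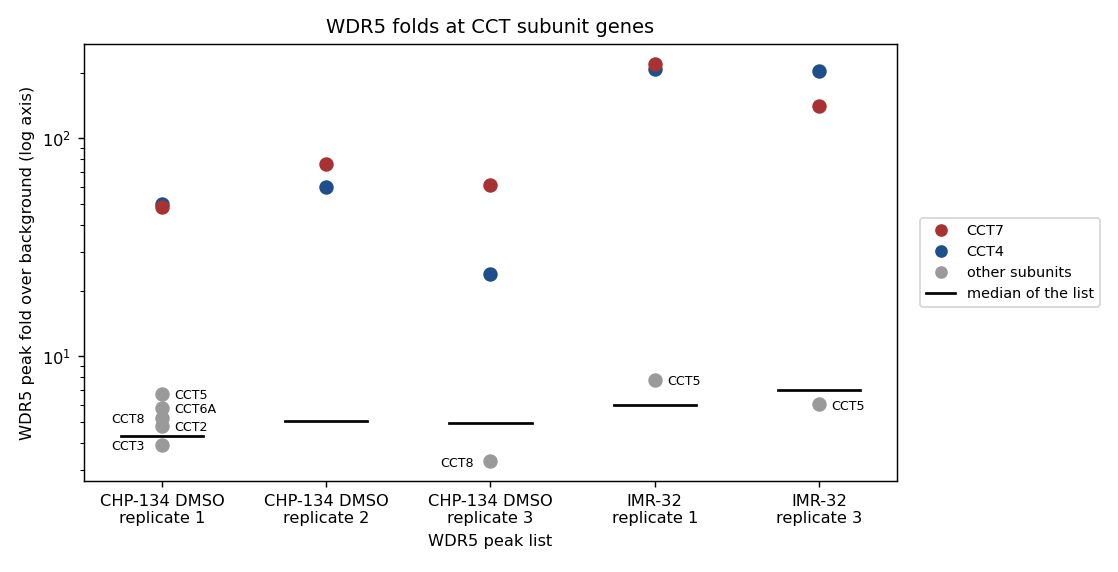
WDR5 peak fold over background on a log axis (vertical) for the subunit genes with a peak in each of the 5 DMSO and IMR-32 lists (horizontal axis), with a black line at the median fold of the list. CCT7 and CCT4 lie between 23.8 and 219 and the other subunit genes at 7.80 or below.

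At CCT7 both proteins peaked in the first intron, downstream of the TSS. The WDR5 summits of the DMSO lists lay at 127, 146 and 136 bp, within the capitals of the CCT7 stretch printed above, and the N-MYC summits at 188, 131 and 119 bp. The WDR5 summits were 9.67 bp from the mean N-MYC summit, with an SD of 9.50 bp (n = 3). That SD holds the spread of the WDR5 summits alone, and the N-MYC summits ranged over 69 bp. The ChIP-QPCR product of the study at CCT7 maps to chr2:73461500-73461603, 104 bp from 64 to 167 bp after the TSS. It held the summit in all 6 WDR5 lists with a CCT7 peak and in 3 of the 5 N-MYC lists with one.

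At CCT4 the WDR5 summits lay at 199, 210 and 213 bp, in the coding part of exon 1, and the N-MYC summits at 117, 217 and 112 bp. The distance was 58.7 bp with an SD of 7.37 bp (n = 3), and it was 85.7 bp with an SD of 35.4 bp at CCT8 (n = 2). The N-MYC summits ranged over 105 bp at CCT4 and 107 bp at CCT8, which these SDs leave out, so the distances were not ranked. N-MYC summits at CCT2 lay at 144 to 189 bp and at CCT5 at 239 to 396 bp, both in intron 1. At CCT3 and CCT6A they lay upstream, at -357 to -225 bp and -322 to -77 bp, on the side of the neighbouring TSS. CCT8 summits straddled its own TSS, from -80 to 27 bp.

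**Figure D3:**
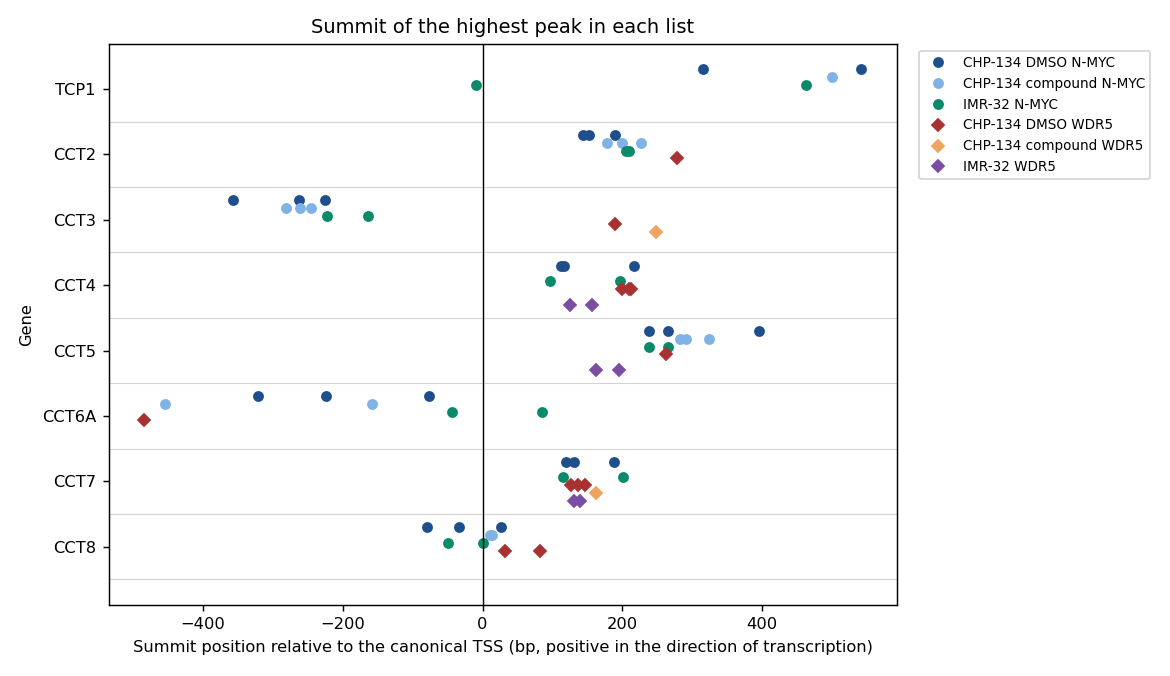
Summit of the highest peak in each list, in bp from the canonical TSS of each gene (horizontal axis, positive in the direction of transcription), for N-MYC (circles) and WDR5 (diamonds) in 6 groups. At CCT7 all 6 WDR5 summits lie between 127 and 162 bp, and at CCT3 every N-MYC summit lies upstream.

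Canonical E-boxes were counted at these genes, and for only 8 genes the counts were near the shares over all promoters. CACGTG, which reads the same on both strands, was present within 100 bp of the strongest N-MYC summit of DMSO at 1 of the 8 genes, TCP1, against 26.9% of 6590 summits at promoters. The TCP1 site lies at 498 bp after the TSS, in intron 1, and the compound replicate 1 summit fell on it, while the DMSO summits lay 41 and 184 bp away. Within 1 kb of the canonical TSS, CACGTG was found at 2 of the 8 genes, TCP1 and CCT6A, against 29.3% of genes. The CCT6A site lies at -703 bp and at least 245 bp from any N-MYC summit.

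Other E-boxes were searched on both strands in the same windows. The form CACGCG was present at CCT8 alone, against 28.8% of promoter summits. Of the 8 genes, CCT2 alone held the form CATGCG, against 10.6%. No member had CACGAG, which 13.4% of promoter summits had. CATGTG was present at CCT2, CCT3 and CCT5 (9.10%). The general form CANNTG, which overlaps CACGTG and CATGTG, was present at 5 of the 8 genes (58.2%), and at CCT7 it was the one form found. Within 100 bp of the strongest WDR5 summit, neither CCT4, CCT7 nor CCT8 had CACGTG, against 21.5% of 1401 summits at promoters.

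With the compound, N-MYC peaks were present in at least 2 of 3 lists at 5 of the 8 genes (CCT2, CCT3, CCT5, CCT6A and CCT8), against 29.8% of all genes. CCT2 again had the highest percentiles of the 8 genes, 99.6, 93.5 and 96.0. CCT3 stood at 80.4, 65.3 and 93.3. CCT5 stood at 93.0, 23.2 and 81.1, with its low value in replicate 2 as in DMSO. CCT8 stood at 51.8 and 58.6 in replicates 1 and 3, and CCT6A at 76.1 and 88.5. TCP1 had a peak in replicate 1 alone, at 80.3.

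CCT4 and CCT7 had an N-MYC peak in all 3 DMSO lists and in none of the 3 compound lists. In DMSO their -log10 q was 12.2, 8.77 and 7.32 at CCT7 and 26.5, 21.4 and 6.74 at CCT4, and the last of these peaks stood at percentile 4.57. CCT8, which was listed with the compound in replicates 1 and 3, had a -log10 q of 24.0, 7.21 and 10.2 in DMSO. The part of peak strength in the missing calls was not tested. For presence in 3 of 3 lists against 0 of 3, the two-sided exact permutation test over unpaired lists gave p = 0.1 at each gene. That is the smallest that 3 against 3 unpaired lists allow, and the test left out the pairing of libraries by replicate number. The compound list of replicate 2 held 2964 peaks, and without it both genes were still missing.

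The same pattern was counted over all genes. Of 5348 genes with N-MYC in every DMSO list, 1.91% (102 genes) were in no compound list, and 2 of the 7 subunit genes were among them. The share over all genes moved with the libraries used, to 4.91% and 3.82% without DMSO replicate 2 or 3 and to 4.73% and 8.98% without compound replicate 1 or 3, while CCT4 and CCT7 stayed the 2 members. The reverse, N-MYC in every compound list and in no DMSO list, was found at 0 of 2135 genes (0%) and at none of 3 subunit genes. These genes needed a peak in compound replicate 2, which held 2964 peaks, while each DMSO list held 9125 or more. The 2 directions are therefore not alike, and the part of list length was not tested. These counts and the classes below were chosen after the values at CCT4 and CCT7 were seen, and genes that share a promoter were counted separately. Among 1521 genes whose mean DMSO percentile was 50 to 70, like that of CCT4, CCT5, CCT7 and CCT8, 1.38% were in no compound list. No single DMSO list placed CCT4 or CCT5 in that band, and the SD over lists was 45.7 points for each. The class therefore does not match the N-MYC strength of these 2 genes.

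The share was also counted by WDR5. Among genes with N-MYC in every DMSO list it was 2.36% of 2499 genes with WDR5 in no DMSO list, 4.7% of 638 genes with WDR5 in every DMSO list and 25.7% of 109 genes whose mean WDR5 percentile there was at least 95. The 109 genes are part of the 638, and they hold 28 of the 30 genes of the 638 without N-MYC in the compound lists. The 4.7% therefore rests mainly on these 109 genes and is not a middle step. Genes with WDR5 in some but not all DMSO lists fell in none of these classes. The 59 genes without N-MYC among the 2499 and the 30 among the 638 made up most of the 102. The shares therefore do not show a stepwise rise with WDR5. CCT4 and CCT7 belong to this class of 109 genes and are among the 28. The class was chosen with their values in view, and no test of the shares was made.

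**Figure D4:**
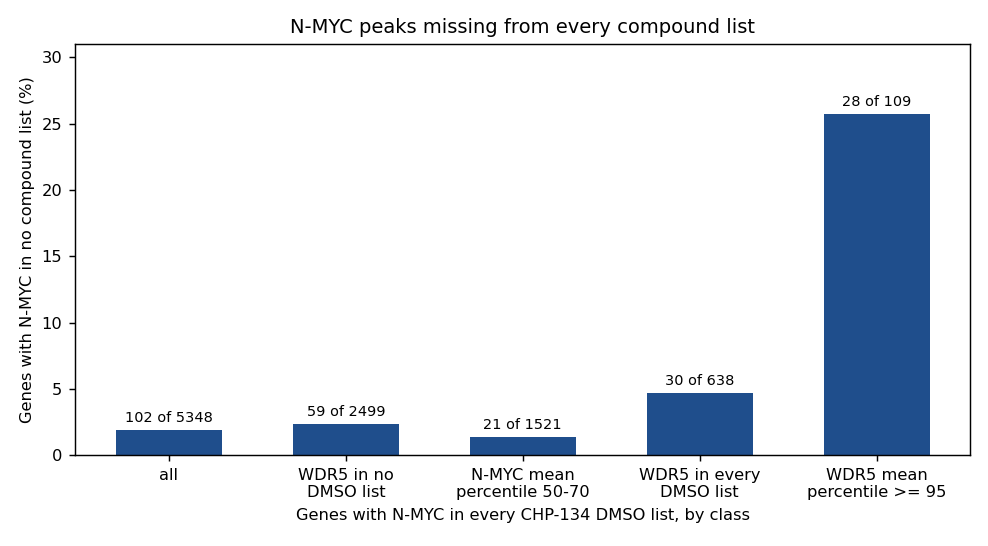
Share, among genes with N-MYC in every CHP-134 DMSO list, that had N-MYC in no compound list (vertical axis, %, from 0), for all such genes and for 4 classes (horizontal axis), with the counts above the bars. The share is 1.91% for all and 25.7% for genes with a mean WDR5 percentile of at least 95, the class of CCT4 and CCT7. The classes overlap, and this last one lies within the class with WDR5 in every DMSO list. Genes with WDR5 in some but not all DMSO lists are in none of the WDR5 classes, so the bars are not a graded series.

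Where a peak was present in all 6 N-MYC lists of CHP-134, its quantile-normalized log2 fold was compared with limma, which covered 1827 promoter regions, those of CCT2, CCT3 and CCT5 among them. In this unpaired fit no region rose (0%) or fell (0%) at an adjusted p under 0.05, and 15 had an unadjusted p under 0.05. CCT2 differed by 0.19 with an SE of 0.27 (95% interval -0.41 to 0.79), CCT3 by 0.17 with an SE of 0.24 (-0.35 to 0.68) and CCT5 by 0.13 with an SE of 0.38 (-0.71 to 0.97), each with an adjusted p of 1. Same-numbered DMSO and compound libraries deviated together, and the unpaired fit left this out. With the replicate number as a block, the paired limma fit called 3 regions, all lower, none of them at a subunit gene. In it 127 regions had an unadjusted p under 0.05. The differences stayed the same, with SEs of 0.16 at CCT2 (95% interval -0.14 to 0.52), 0.16 at CCT3 (-0.16 to 0.50) and 0.19 at CCT5 (-0.26 to 0.53). The adjusted p of the paired fit was 0.80, 0.85 and 0.96 at CCT2, CCT3 and CCT5. CCT4 and CCT7 had no compound value and could not be fitted.

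WDR5 was missing more widely with the compound. None of the 8 genes had a WDR5 peak in at least 2 compound lists, against 1.29% of all genes, so this count was near the share over all genes. CCT7 kept one in replicate 1, the longest WDR5 list of the series, with a fold of 4.21, a percentile of 53.9 and a width of 384 bp, beside folds of 48.6 or more in DMSO. CCT4 had none in any compound list (two-sided exact permutation test of presence over unpaired lists, p = 0.1). Compound replicate 1 held more peaks than any DMSO list, but 15.7% of protein-coding genes had one there, against 18.5% in DMSO replicate 1. CCT3 had a WDR5 peak in compound replicate 1 at a percentile of 29.1. Of 778 genes with WDR5 in every DMSO list, 38.9% were in no compound list, so the absence at CCT4 was shared by many genes.

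A poor pull-down and lost binding cannot be told apart in compound replicates 2 and 3, which held 15 and 401 WDR5 peaks. The fit of WDR5 fold with replicates 1 and 3 covered 115 promoter regions, of which 18.3% were higher (21 regions) and 22.6% lower (26 regions) with the compound at an adjusted p under 0.05 (limma). That split depended on the scaling, with 8 higher and 30 lower under median centring and 0 higher and 9 lower on percentiles. No subunit gene was among those 115 regions.

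In IMR-32, all 8 genes again had N-MYC in both lists, against 15.2% of all genes. CCT5 stood at 98.5 and 77.3, CCT2 at 98.9 and 48.2, CCT7 at 88.1 and 74.3 and CCT4 at 82.8 and 75.4. CCT3 was at 78.8 and 13.0, CCT8 at 67.5 and 35.2, CCT6A at 53.7 and 19.9 and TCP1 at 27.0 and 2.38. TCP1 was the lowest in both lists, and CCT7 was among the 3 highest in both. With -log10 q of at least 5, the genes with a peak in both lists were CCT2, CCT4, CCT5 and CCT7. The share of all genes under that stricter rule is not given here, so this count was not compared with it.

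WDR5 in IMR-32 marked the same pair. CCT4, CCT5 and CCT7 had a peak in both lists, against 4.75% of all genes. CCT7 had WDR5 folds of 219 and 141 in replicates 1 and 3, at percentiles of 99.0 and 96.3, and CCT4 had folds of 208 and 203, at 98.3 and 99.3. CCT5 was the next gene, with folds of 7.80 and 6.02, lower than the second of the pair by 26.6 and 23.4 times. Peaks at CCT7 and CCT4 were 1632 to 2045 bp wide, beside list medians of 386 and 433 bp. The CCT7 summits lay at 131 and 140 bp, inside the span seen in CHP-134, and the CCT4 summits at 157 and 125 bp, nearer to the TSS than in CHP-134.

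N-MYC fold was compared between the lines over 2315 promoter regions with a peak in all 5 lists, of which 0.173% were higher and 0.346% lower in IMR-32 (limma, adjusted p under 0.05). None of the 7 fitted subunit genes passed. CCT5 was higher in IMR-32 by 0.67 on the log2 scale with an SE of 0.37 (adjusted p 0.43) and CCT7 by 0.62 with an SE of 0.29 (95% interval 0.016 to 1.23, unadjusted p 0.045, adjusted p 0.33). CCT4 was higher by 0.52 with an SE of 0.35. CCT3, CCT6A and CCT2 had values of -0.48, -0.38 and -0.33, and CCT8 of -0.0032, with SEs of 0.29 to 0.36. The percentiles of CCT7 and CCT3 did not overlap between the lines, and the exact permutation test gave p = 0.2 for each, the smallest that 3 lists against 2 allow. Those of TCP1 did not overlap either, with a mean of 61.9 in CHP-134 and 14.7 in IMR-32 (exact permutation p = 0.33, the smallest for 2 lists against 2). TCP1 entered the fit when a peak in at least 2 libraries of each group was enough, at -0.70 with an adjusted p of 0.34.

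WDR5 fold was compared over 422 promoter regions, of which 2.84% were higher (12 regions) and 3.32% lower (14 regions) in IMR-32, with 75 higher and 56 lower under median centring. CCT4 differed by 0.60 with an SE of 0.40 (95% interval -0.26 to 1.46, adjusted p 0.41) and CCT7 by -0.19 with an SE of 0.32 (-0.87 to 0.49, adjusted p 0.77). With median centring in place of quantile normalization, CCT4 was higher in IMR-32 by 1.33 with an adjusted p of 0.0038, and CCT7 turned to 0.55 with an adjusted p of 0.18. The call at CCT4 thus depended on the scaling.

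**Figure D5:**
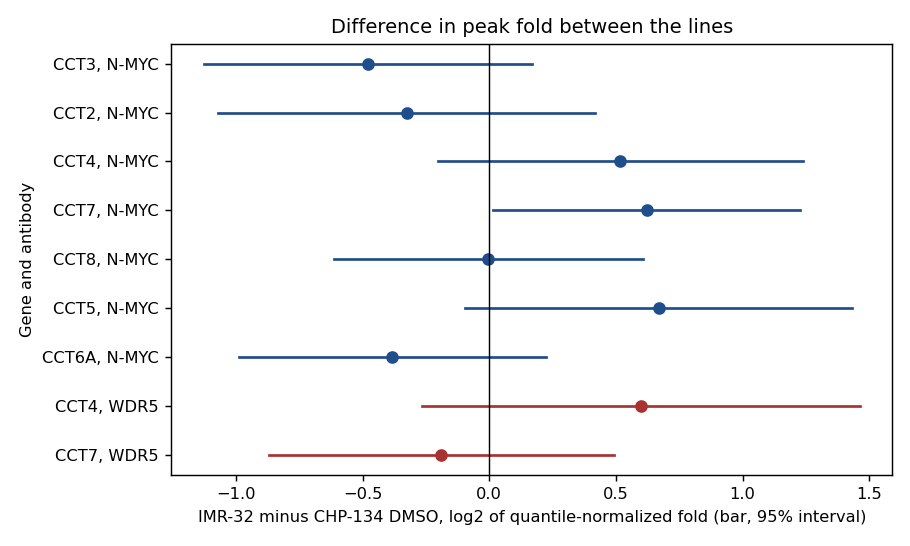
Difference in log2 quantile-normalized peak fold, IMR-32 minus CHP-134 DMSO (horizontal axis), with its 95% interval, for the 7 subunit genes fitted for N-MYC (blue) and the 2 fitted for WDR5 (red). Of the 9 intervals, that of CCT7 for N-MYC lies above 0, from 0.016 to 1.23, and no adjusted p is under 0.05.

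Genes that work with CCT were counted by the same rule, beside shares over all genes of 37.6%, 29.8% and 15.2% for N-MYC in DMSO, with the compound and in IMR-32, and of 8.24%, 1.29% and 4.75% for WDR5. Of 9 co-chaperone genes, 6 had N-MYC in at least 2 DMSO lists (PFDN2, PFDN4, PFDN5, PFDN6, PDCL3 and TXNDC9), 5 with the compound and 2 in IMR-32, and none had WDR5 in any group. For lists of this size, counts of 2 in IMR-32 and of 0 for WDR5 were near the shares over all genes. HSPD1 and HSPE1, which encode the mitochondrial chaperonin and its cap and share a promoter, both had N-MYC in all 3 groups, at percentiles of 65.6 to 96.6 in DMSO, and WDR5 in none. Of the 4 CCT-related genes, MKKS alone had N-MYC, in CHP-134.

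Among 10 CCT substrate genes, 8 had N-MYC in DMSO, 7 with the compound and 4 in IMR-32, against 37.6%, 29.8% and 15.2% of all genes. WDR5 was present at 3 of them in DMSO (ACTG1, TUBA1B and TUBB, a cytoplasmic actin and tubulin genes) and at 3 in IMR-32 (ACTG1, TUBA1B and VHL). The shares over all genes were 8.24% and 4.75%. The WDR5 percentiles of these genes were at most 51.9 in DMSO and 59.2 in IMR-32, well below CCT4 and CCT7. Of 13 genes of these lists with N-MYC in every DMSO list, none was missing from all 3 compound lists, a count near the 1.91% of all genes, with HSPD1 and HSPE1 counted separately.

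The genes whose percentiles over the 16 lists were most like those of CCT7 were RPL15 (mean absolute difference 3.45 points, an absent peak counted as 0 and the list of 15 peaks included), CSNK1E (5.34), RPS3A (5.40), and RPS10 with RPS10-NUDT3, which share a promoter (5.70). RPL15, RPS3A and RPS10 encode ribosomal proteins and CSNK1E a casein kinase. All had WDR5 in every DMSO and IMR-32 list, with mean percentiles of 95.2 or above in each group, and N-MYC in 0 or 1 of the 3 compound lists. These values follow from choosing the genes by their likeness to CCT7 over the same lists, so they are a description and not a result. In the same order over 10816 genes, CCT4 had rank 22 at 9.04 points, while CCT5 had rank 1077, CCT8 1142 and the other subunit genes lower ranks.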

How the data were processed

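Adapters were removed with Cutadapt, reads were placed on hg19 by Bowtie2, and MACS2, at q 0.05, gave the authors a peak list for each library. The deposited lists give, per peak, a fold over background (a ratio), a -log10 q and a summit. The deposited score, which follows the -log10 q, was not used. Tool versions and the control library are not given in the sources used here. Read depth is unknown and was not inferred from the number of peaks in a list, and 6 IgG samples were not used here. Fold depends on each library's background, so percentiles within a list were used, or log2 fold quantile-normalized over promoter regions (peaks merged across lists that share 1 bp) with a peak in every list of a comparison. Restricting to these regions leaves out sites that lost their peak.

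TSSs came from GENCODE release 44 lifted to GRCh37. Consensus calls needed at least 2 lists, the rule of the authors. Differences were tested with limma (version 3.58.1 in R 4.3.3) with Benjamini-Hochberg adjustment over all regions fitted. The procedure was run on simulated data with 3 unpaired libraries in each group and equal noise at every region. That simulation does not cover paired replicates, unequal spreads or groups of unequal size. Single values were tested with two-sided exact permutation tests (scipy 1.17.1), which took the lists as unpaired. The study's methods describe its ChIP-seq as 3 independent experiments, and the labels do not name the culture behind each library. In CHP-134 N-MYC, same-numbered DMSO and compound libraries deviated together (r = 0.66, 0.64 and 0.69 for replicates 1, 2 and 3), so replicate numbers pair them. All 8 members were named, with neighbours that share a peak, listed co-chaperone, related and substrate genes, and the 5 genes most like CCT7. Members and lists were chosen with earlier results of these data known.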

Additional observations from a re-analysis of the deposited data

How the results depend on the processing

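Of 145 alternative values for counts and group differences, 116 kept the call or stayed within 1.5 times the count or 1 SD. For N-MYC fold with the compound, all regions gave 1 call and the replicate block 3, in place of 0, and leaving out any one library gave 0. For WDR5 fold with the compound, the 47 calls fell to 9 on percentiles and ranged from 39 to 64 without one library. For N-MYC between lines, the 12 calls became 0 with median centring, percentiles or a -log10 q of at least 5, 30 with the replicate block, and 0 to 17 without one library (0 without CHP-134 replicate 2 or 3, or without either IMR-32 list). For WDR5 between lines, the 26 calls became 131 with median centring, 0 on percentiles, 44 with the replicate block, and 1 to 18 without one library (13 and 10 without CHP-134 replicates 1 and 3, 3 and 1 without IMR-32 replicates 1 and 3). Same-numbered libraries of different lines did not deviate together, and the block changed no call at a subunit gene. Fewer samples enter when a library is left out; otherwise the cause was not tested.

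The 5 genes with N-MYC in at least 2 compound lists became 3 when every library was required and 3 to 5 without one library (3 without replicate 1 or 3), and the 8 in IMR-32 became 4 with a -log10 q of at least 5. Of all 20136 protein-coding genes, 2135 had N-MYC in every compound list. WDR5 in at least 1 library was present at 7 genes in DMSO and 2 with the compound (CCT3 and CCT7). The DMSO counts without one library ranged from 7 to 8 for N-MYC and 2 to 3 for WDR5, and the compound WDR5 count stayed 0. For the other counts up to here the share of all genes is not given, so they are descriptions alone. Leaving out one IMR-32 list gave no count, because 2 lists are needed. Among settings chosen after the data were seen, CCT4 and CCT7 were the 2 genes without N-MYC in the compound lists under all 10 alternatives, with 1.01% to 8.98% of the genes with N-MYC in every DMSO list missing there. The WDR5 count of 1 became 2 without DMSO replicate 2 (adding CCT8) or without compound replicate 1 (adding CCT7), and ranged from 1 to 2 without one library.

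The CCT7 excess over partners in WDR5 was 10.8 to 34.3 without one library and 74.3 with absent partners at 0, and in N-MYC it was -29.5 to -1.43. Against the highest partner, which was CCT4 in each list, the WDR5 excess was nearly gone. CCT7 stood at 99.2, 99.9 and 98.4 and CCT4 at 99.3, 98.5 and 94.2 in DMSO replicates 1, 2 and 3. That change still lay within 1 SD of the main value. CACGTG within 100 bp of the summit was found at 0 to 1 genes without one library (0 without replicate 1). The CCT7 summit distance was 5 to 23.2 bp without one library (23.2 without N-MYC replicate 3).

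Of 132 alternative log2 differences of single genes, 120 kept their direction and call, and one became a call (CCT4, WDR5 between lines, median centring). With the compound, CCT3 and CCT2 turned to -5.59 and -0.35 percentile points, and CCT5 to -0.023 with a peak in at least 2 libraries of each group and to as low as -0.35 (highest 0.47) without one library. Between lines, CCT8 turned to 0.066 and CCT7 WDR5 to 0.55 with median centring. Without one library, CCT2 ranged from -1.04 to 0.38, CCT8 from -0.13 to 0.16 and CCT7 WDR5 from -0.41 to 0.015.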
